A study of Bos taurus with 12 samples.

Results

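The comparison described here set the superstimulated (S) cycle of 6 heifers against the unstimulated (U) cycle of the same heifers, in microRNAs (miRNAs) carried by extracellular vesicles (EVs) of blood plasma. It used 12 of the 12 libraries of the series, 6 from the S cycle and 6 from the U cycle, joined into 6 pairs by the response letter and the number in the library names (UL1 with SL1, UH1 with SH1 and so on). The members were all miRNAs with a value above 0 in at least 6 of 12 libraries, which were 190 of the 783 bovine miRNAs listed. A further 146 miRNAs had reads in 1 to 5 libraries and were not tested, and 447 had none in any library.

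The heifers were Charolais- and Limousin-cross animals, of which 3 had a high (H) and 3 a low (L) ovulatory response, chosen on their number of corpora lutea after superstimulation. In the U cycle, plasma was taken on Day 7 after an ovulation synchronised with a progesterone device, GnRH and prostaglandin, without FSH. In the S cycle, the same animals received FSH for 4 days from Day 10, prostaglandin with injection 6 and artificial insemination. The study's methods describe repeated prostaglandin injections during the FSH treatment and repeated insemination. Plasma was taken on Day 7 after the induced ovulations. The S cycle followed the U cycle in every heifer, so FSH, insemination, the multiple corpora lutea and the order of sampling cannot be told apart. The pooled comparison weights H and L heifers equally, and the difference between their changes is given separately.

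EVs are membrane-bound particles that most cell types release, and plasma collects them from blood cells, the vessel wall and solid organs. A mature miRNA guides silencing proteins to messenger RNAs that pair with its seed, the bases near its 5′ end, so miRNAs with the same seed are grouped as a family. Many miRNAs are typical of a cell type, such as miR-126 of endothelium, miR-486 and miR-451 of red cells, miR-142 and miR-223 of leukocytes and miR-375 of endocrine cells. The hormones of superstimulation act on the follicle, and the corpus luteum that forms afterwards is among the most densely vascularised tissues of the body. In plasma, fewer EVs from a cell type and less of a miRNA per EV cannot be told apart.

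The sequences below, read from the deposited file in 5′ to 3′ direction with T for U, are those of the miRNAs on which the results turn, with the closest relatives that set their changes in context. Capitals mark the seed, bases 2 to 8. The first pair shares a seed, as do the next 3, and both arms of miR-126 come from the same precursor.
miR-196a: tAGGTAGTttcatgttgttggg
miR-196b: tAGGTAGTttcctgttgttggga
let-7c: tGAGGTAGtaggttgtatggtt
let-7a-5p: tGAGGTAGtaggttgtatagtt
let-7b: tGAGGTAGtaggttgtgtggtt
miR-199a-3p: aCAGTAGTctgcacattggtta
miR-126-3p: cGTACCGTgagtaataatgcg
miR-126-5p: cATTATTActtttggtacgcg
miR-30a-5p: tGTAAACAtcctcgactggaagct
miR-103: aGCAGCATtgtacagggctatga
miR-107: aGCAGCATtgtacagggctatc
miR-375: tTTTGTTCgttcggctcgcgtga
miR-1468: cTCCGTTTgcctgttttgctga
miR-379: tGGTAGACtatggaacgtagg
Over the shared length, counted from 1 at the 5′ end, miR-196b differed from miR-196a by A12C, let-7a-5p from let-7c by G19A and let-7b from let-7c by A17G. These relatives are told apart by 1 base, and the authors annotated only reads without a mismatch.

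The libraries held 21466 (SH2) to 77433 (SH3) reads of known miRNAs, and the 190 miRNAs covered 99.8 to 99.9% of them. Reads were scaled by TMM, which gives each library a single factor from the trimmed ratios of its miRNAs to a reference library. A level is given as normalized reads at the mean depth of the 12 libraries. Changes are differences of log2(normalized reads + 1), S minus U, with the standard error (SE) of a limma fit that keeps the heifer as a block. Calls required a log2 change of 1 or more in either direction together with P ≤ 0.05 in this fit before correction, and the P-values printed are limma values after Benjamini-Hochberg adjustment over the 190 miRNAs or, where named, from an exact permutation test that flips the signs of the 6 changes.

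The S cycle had higher plasma EV levels of the miR-196 pair and miR-199a-3p in 5 of 6 heifers, and lower levels in 5 or 6 of 6 heifers of miR-126, miR-30a-5p, miR-103, miR-1468 and miR-375. Of the 190 miRNAs, 10 (5.26%) were called, 6 (3.16%) as higher and 4 (2.11%) as lower in the S cycle. The threshold of 0.05 was reached before correction by 17 (8.95%). None (0, 0.0%) reached an adjusted P under 0.05 with limma, where the smallest was 0.155, nor with voom weights, where 16 reached the unadjusted threshold and the smallest adjusted P was 0.059. The voom value was the lowest of the settings with all 6 heifers. In the other limma settings, the smallest adjusted P ran from 0.120 (library size without TMM) to 0.564 (without the heifer block). The mean change was below 0 for 119 miRNAs and above 0 for 71, with a median of -0.13.

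**Figure D1:**
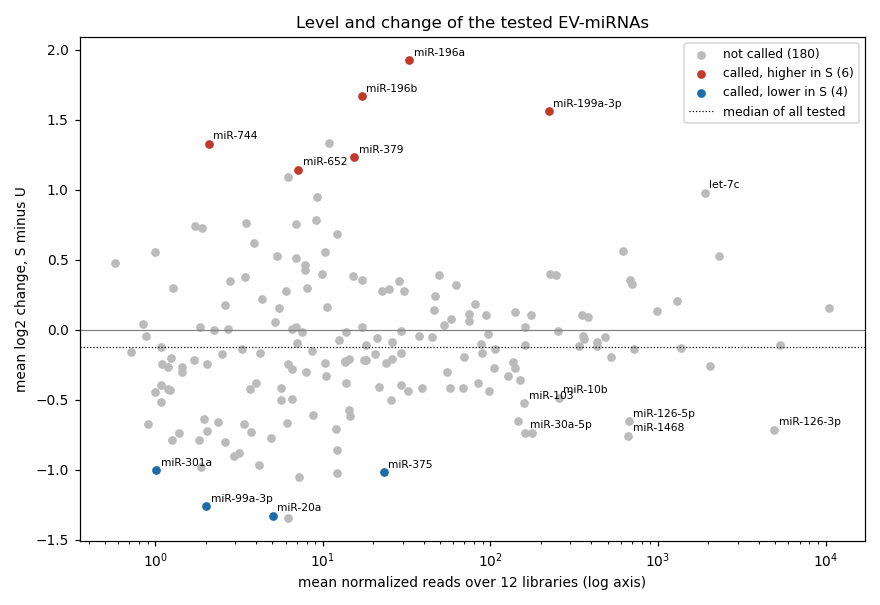
Mean log2 change, S minus U (vertical axis), against mean normalized reads over 12 libraries (log axis) for the 190 tested miRNAs, 1 point each. Called miRNAs are coloured, miRNAs with an unadjusted P ≤ 0.05 are named, and 5 of the 10 called lie under a mean of 10 reads.

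miR-196a and miR-196b, which are encoded within the HOX gene clusters and repress HOX genes, had the largest mean changes among the called miRNAs. The level of miR-196a ranged from 1.98 to 13.8 normalized reads in the U libraries (median 10.6) and from 3.94 to 183 in the S libraries (median 36.9). All S libraries but SL2 lay above every U library. Its mean log2 change was 1.93 (SE 0.55, n = 6 pairs, adjusted P = 0.193, exact sign-flip permutation P = 0.0625), with 5 pairs higher and 1 lower. The level of miR-196b ranged from 0.0 to 21.8 in the U cycle (median 4.97) and from 0.985 to 68.5 in the S cycle (median 24.9), so the groups overlapped more. Its change was 1.67 (SE 0.67, adjusted P = 0.411, exact sign-flip permutation P = 0.0938), again with SL2 alone below its partner. These are scarce miRNAs, with 2 to 15 reads of miR-196a and 0 to 29 of miR-196b in the U libraries.

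The remaining members encoded in the HOX clusters, miR-10a and miR-10b, had mean changes below 0. miR-10b was at 199 to 371 normalized reads in the U cycle (median 300.5) and 121 to 257 in the S cycle (median 227), which is a log2 change of -0.49 (SE 0.18, adjusted P = 0.361, exact sign-flip permutation P = 0.0625) with 5 of 6 pairs lower. For miR-10a the change was -0.16 (SE 0.21, adjusted P = 0.848). The list therefore had a median change of 0.75 over its 4 members, 2 higher and 2 lower, while its summed level, carried by miR-10b, was higher in only 2 of 6 pairs.

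miR-199a-3p, known from mesenchymal and smooth muscle cells and abundant in fibroblasts, ranged from 35.6 to 226 normalized reads in the U cycle (median 67.2) and from 60.1 to 996 in the S cycle (median 269). Of the S libraries, 3 lay above every U library and 5 above the U median. The log2 change was 1.56 (SE 0.39, adjusted P = 0.155, exact sign-flip permutation P = 0.0625), and heifer L2 was again the only one with a lower value in the S cycle, at -0.15. The opposite arm of the same precursor, miR-199a-5p, had 3.05 ± 2.28 normalized reads in the U cycle and 18.8 ± 20.9 in the S cycle (mean ± SD, n = 6) and a change of 1.33 (SE 0.67), which missed the threshold also before correction (adjusted P = 0.554). In the mesenchymal and smooth muscle list, 6 of 10 members had a mean change above 0 and 1 was called, with a median change of 0.24 against -0.13 over all 190.

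let-7c, a member of the let-7 family of developmental timing miRNAs, missed the call by its size only. It ranged from 926 to 1442 normalized reads in the U cycle (median 1087) and from 1101 to 5986 in the S cycle (median 2222), and 4 S libraries lay above every U library. Its log2 change was 0.98 (SE 0.29, adjusted P = 0.213, exact sign-flip permutation P = 0.0938). Changes of the other abundant members with the same seed were smaller. That of let-7b, the most abundant miRNA of these libraries, was 0.16 (SE 0.24, adjusted P = 0.851), that of let-7a-5p -0.11 (SE 0.20, adjusted P = 0.851) and that of let-7f -0.26 (SE 0.19, adjusted P = 0.695). Over the 9 members of the family, 5 were higher and 4 lower on average, with a median of 0.06.

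In RefSeq, let-7c and miR-99a are neighbouring genes. The 5′ arm miR-99a-5p had a change of 0.32 (adjusted P = 0.695), and the 3′ arm miR-99a-3p was called as lower on 1 to 6 reads per U library and 0 to 4 per S library. miR-125b, which is often expressed with let-7c, ranged from 384 to 549 normalized reads in the U cycle and 338 to 1362 in the S cycle, with a change of 0.56 (SE 0.28, adjusted P = 0.554).

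miR-379, from the imprinted DLK1-DIO3 locus, ranged from 2.94 to 15.7 normalized reads in the U cycle (median 6.12) and from 6.03 to 55.1 in the S cycle (median 15.8). The log2 change was 1.23 (SE 0.52, adjusted P = 0.45, exact sign-flip permutation P = 0.0938) with 5 pairs higher, and 3 S libraries exceeded every U library. Of the 8 measured members of this locus, 4 were higher and 4 lower on average, with a median of 0.08. The most abundant, miR-432 and miR-127, had changes of 0.35 (adjusted P = 0.705) and 0.29 (adjusted P = 0.796).

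miR-652 and miR-744 completed the called miRNAs that were higher in the S cycle. miR-652 had 1 to 9 reads in the U libraries and 3 to 20 in the S libraries (log2 change 1.14, SE 0.50, adjusted P = 0.486). miR-744 had 0 to 3 reads in the U libraries, 3 of which were at 0, and 0 to 8 in the S libraries (adjusted P = 0.361). At these counts single reads decide the order of libraries, and no fold is given for miR-744.

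**Figure D2:**
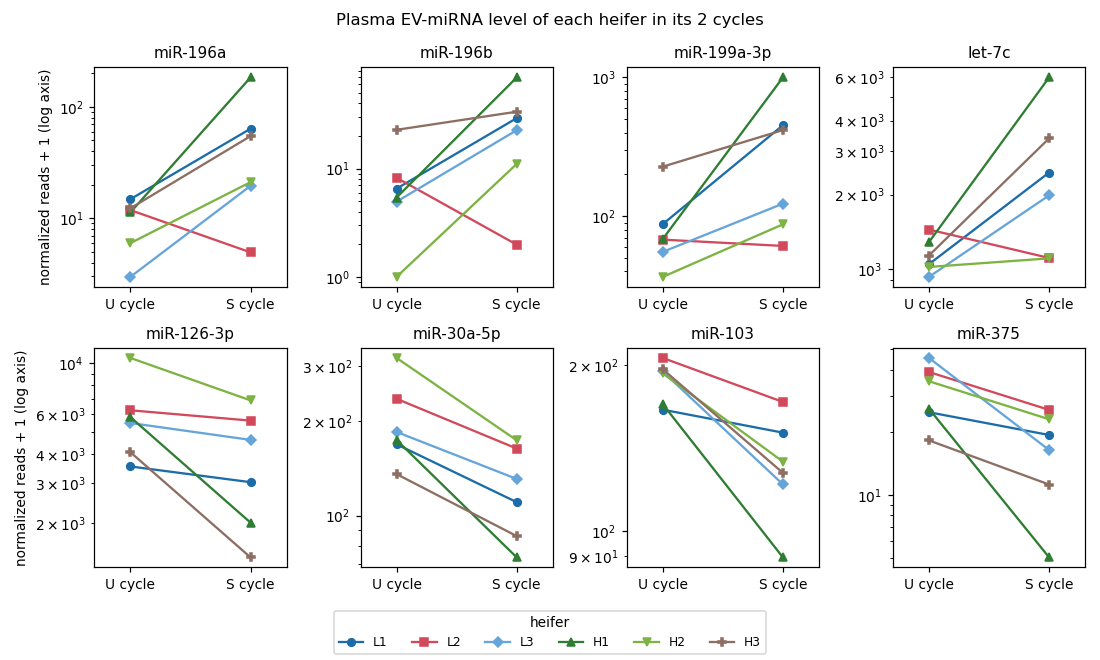
Normalized reads + 1 (log axis) of 8 miRNAs in the U and the S cycle, 1 line per heifer. In the upper row, heifer L2 runs downwards in all 4 panels and the other 5 heifers upwards, and in the lower row all 6 lines fall.

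In the S cycle, 5 miRNAs (2.63% of those tested) were lower in 6 of 6 pairs, namely miR-126-3p, miR-30a-5p, miR-103, miR-1468 and miR-375, while 0 (0.0%) were higher in 6 of 6. With 6 pairs, an exact sign-flip permutation test of a single miRNA cannot go below a two-sided P of 0.03125, before any correction. Every miRNA that changes the same way in 6 of 6 pairs has that value. Signs given at random would also put a share of 0.03125 of miRNAs the same way in 6 of 6 pairs. The 5 lower (2.63%) and 0 higher are close to that share, so their number is no result in itself. For these 5 miRNAs the P, printed again below, therefore restates how they were picked and is no further test. Of the 5, only miR-375 passed the size threshold of a call.

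miR-126-3p, which endothelial cells express from an intron of EGFL7, was the most abundant of them. It ranged from 3541 to 10536 normalized reads in the U cycle (median 5647) and from 1420 to 6878 in the S cycle (median 3824), and 3 S libraries lay below every U library. The log2 change was -0.72 (SE 0.25, adjusted P = 0.289, exact sign-flip permutation P = 0.03125), or 1.64-fold lower. The other arm, miR-126-5p, ranged from 518 to 1344 in the U cycle and from 230 to 800 in the S cycle, with a change of -0.66 (SE 0.23, adjusted P = 0.289, exact sign-flip permutation P = 0.0625) and 5 of 6 pairs lower. Both arms therefore had changes of about the same size.

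The other endothelial-associated miRNAs on the list, miR-221 and miR-222, had mean changes above 0, so the list of 4 was split between 2 lower and 2 higher members. Its summed level, carried by miR-126, ranged from 4128 to 11919 in the U cycle (median 6508) and from 1755 to 7738 in the S cycle (median 4466), and was lower in the S cycle in every pair.

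miR-30a-5p, of a family that is widely expressed in epithelia and many other tissues, had the smallest unadjusted P. It ranged from 135 to 317 normalized reads in the U cycle (median 179) and from 72.5 to 173 in the S cycle (median 120), and 4 S libraries lay below every U library. The log2 change was -0.74 (SE 0.18, adjusted P = 0.155, exact sign-flip permutation P = 0.03125), and the single changes lay between -1.25 and -0.50. miR-30d, the most abundant member with the same seed, had a change of -0.05 (SE 0.22, adjusted P = 0.946). Of 6 members, 5 had a mean change below 0 and the median was -0.21, against -0.13 over all tested miRNAs.

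miR-103, encoded in introns of the PANK genes, ranged from 165 to 205 normalized reads in the U cycle (median 193), against 88.6 to 170 in the S cycle (median 130). Of the S libraries, 5 lay below every U library, and SL2 did not. The log2 change was -0.53 (SE 0.18, adjusted P = 0.289, exact sign-flip permutation P = 0.03125). Its seed partner miR-107, which differs by G22C, was at 12.3 ± 3.33 in the U cycle and 12.6 ± 6.13 in the S cycle, a change of -0.07 (SE 0.43, adjusted P = 0.957).

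miR-1468 ranged from 497 to 1360 normalized reads in the U cycle (median 731) and from 177 to 942 in the S cycle (median 514). Its log2 change was -0.76 (SE 0.21, adjusted P = 0.193, exact sign-flip permutation P = 0.03125).

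miR-375, which is typical of pancreatic islet and other endocrine cells, ranged from 17.3 to 44.5 normalized reads in the U cycle (median 29.6) and from 4.03 to 24.6 in the S cycle (median 16.9). Its log2 change was -1.02 (SE 0.36, adjusted P = 0.289, exact sign-flip permutation P = 0.03125), or 2.03-fold lower. In the liver, gut and endocrine list, 7 of 8 members had a mean change below 0. The median of that list was -0.50, against -0.13 over all tested miRNAs. The liver-typical miR-122 ranged from 74.7 to 641 in the U cycle and 48.2 to 327 in the S cycle, with 3 pairs higher and 3 lower (change -0.74, SE 0.52, adjusted P = 0.695).

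The remaining 3 called miRNAs were lower in the S cycle and had few reads. miR-20a, a member of the miR-17-92 cluster that promotes proliferation, had 4 to 10 reads in the U libraries and 0 to 14 in the S libraries, 2 of which were at 0 (log2 change -1.33, SE 0.59, adjusted P = 0.494). In the miR-17-92 list, 6 of 7 members had a mean change below 0, and miR-20a was the only one called. The median of that list was -0.42, against -0.13 over all tested miRNAs. miR-301a had 0 to 5 reads in the U libraries and was at 0 in 5 of 6 S libraries. With miR-99a-3p, it lies at the limit of 3 reads that a count of 0 allows in a library, so no fold is given for either.

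**Figure D3:**
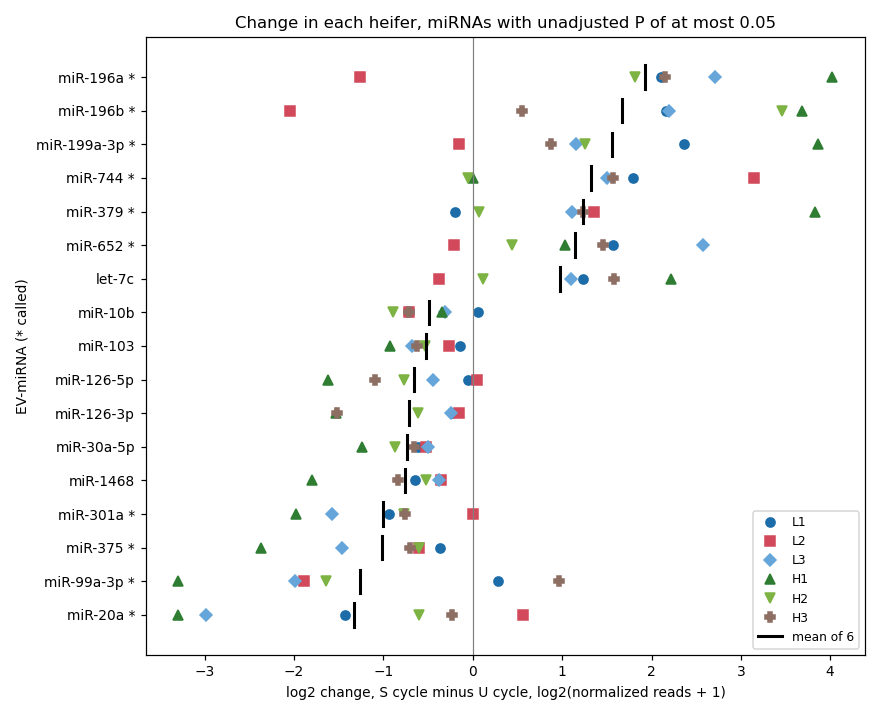
Change in each of the 6 heifers (points) and their mean (black line), as S minus U of log2(normalized reads + 1), for the 17 miRNAs with an unadjusted P ≤ 0.05 (called miRNAs carry an asterisk). Heifer H1 has the largest change in the direction of the mean in 14 of the 17, and heifer L2 moves against the mean in 7. The 17 were picked on means that include every heifer.

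The heifers differed in how they took part. Of the 17 miRNAs with an unadjusted P ≤ 0.05, H1 had the largest change in the direction of the mean in 14. Its change was 4.03 for miR-196a, 3.86 for miR-199a-3p, -2.37 for miR-375 and -1.53 for miR-126-3p. Its libraries held 30289 (UH1) and 38688 (SH1) known miRNA reads, and a part of depth in these changes was not tested. Without H1, 7 miRNAs were called. Of the 10 called with all 6 heifers, miR-196a (1.51, adjusted P = 0.408), miR-199a-3p (1.10, adjusted P = 0.408) and miR-744 kept the call, and the other 7 lost it, among them miR-196b (1.27, adjusted P = 0.762) and miR-375 (-0.75, adjusted P = 0.456).

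Heifer L2 moved against the mean in 7 of the 17, with changes of -1.26 for miR-196a, -2.05 for miR-196b and -0.38 for let-7c. Without L2, 12 miRNAs were called, and 4 had an adjusted P under 0.05 in the limma fit of the remaining 5 pairs. These were miR-196a (2.56, adjusted P = 0.0123), miR-199a-3p (1.90, adjusted P = 0.0338), miR-196b (2.41, adjusted P = 0.0381) and let-7c (1.25, adjusted P = 0.0381). Each heifer was left out in turn, and L2 is singled out here after its values were seen, so these P-values describe the other 5 heifers and do not replace those of all 6. The 5 miRNAs that were lower in every pair had changes between -0.60 and -0.15 in L2.

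Across the miRNAs with a mean of at least 10 normalized reads, the changes of a heifer correlated with those of another by Pearson's r of -0.262 (L1 with L2) to 0.411 (L3 with H2), and all 5 correlations with L2 were below 0. The correlations are across miRNAs, which are not independent replicates. The median absolute log2 difference between the 2 cycles of a heifer was 0.354 (lowest), 0.52 (median) and 0.713 (highest) over the 6 heifers. Between heifers of the same response in the same cycle it was 0.29 to 0.725 in the U cycle and 0.398 to 0.893 in the S cycle (6 comparisons each), and the 3 ranges overlapped.

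No difference between the changes of H and L heifers passed correction. Of the 190 miRNAs, 9 (4.74%) were called for such a difference, 3 with the higher change in H and 6 with the lower, and 9 were at an unadjusted P ≤ 0.05, a share close to the 0.05 that this threshold gives by chance. None (0) reached an adjusted P under 0.05, and the smallest was 0.813. Among the 9, miR-139 had the smallest unadjusted P (difference -1.87, H minus L, SE 0.62, interaction, adjusted P = 0.813) and miR-497 the difference farthest from 0 (2.95, SE 1.03, adjusted P = 0.813), both picked out after their values were seen. Of the miRNAs described above, the 9 held only the arms of miR-126. The mean change of miR-126-3p was -1.22 in H and -0.21 in L heifers, a difference of -1.02 (SE 0.39, interaction, adjusted P = 0.813). For miR-126-5p the changes were -1.16 and -0.15, a difference of -1.01 (SE 0.35, interaction, adjusted P = 0.813). For miR-196a (difference 1.48, interaction, adjusted P = 0.837), miR-199a-3p (0.88, adjusted P = 0.852) and miR-30a-5p (-0.38, adjusted P = 0.852), the difference between H and L heifers did not reach the threshold.

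The miRNAs of red cells were split in direction. miR-486, the main red cell miRNA here, ranged from 1108 to 2713 normalized reads in the U cycle (median 1364) and from 975 to 8318 in the S cycle (median 2170), with 4 pairs higher (change 0.53, SE 0.25, adjusted P = 0.554). Its highest value was in SH3, where it took 17.8% of the known miRNA reads. The other red cell miRNAs, miR-451 and miR-144, had changes of -0.09 (adjusted P = 0.946) and -0.73 (adjusted P = 0.705), and the median of the 3 was -0.09. The log2 ratio of miR-451 to miR-23a reads, a common measure of haemolysis, was -1.81 ± 0.99 in the U and -1.78 ± 0.85 in the S libraries (exact sign-flip permutation P = 0.969, 3 of 6 pairs higher).

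All 8 leukocyte miRNAs had mean changes above 0, between 0.02 and 0.40, and none was called. miR-142-5p had the largest (0.40, SE 0.19, adjusted P = 0.554, 5 of 6 pairs higher). miR-150, of lymphocytes, had a change of 0.20 (adjusted P = 0.851) and miR-342 of 0.13 (adjusted P = 0.851). The median of the list was 0.17 against -0.13 over all 190, while its summed level was higher in 4 of 6 pairs.

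Of the miRNAs that are studied in follicle and corpus luteum, 10 of 17 were measured, 4 with a mean change above 0 and 6 below, and none was called. miR-21-5p, which is induced in granulosa cells at ovulation, was at 256 to 634 normalized reads in the U cycle (median 322) and 237 to 645 in the S cycle (median 341), a change of 0.09 (SE 0.24, adjusted P = 0.89). miR-320a had a change of -0.27 (SE 0.21, adjusted P = 0.695) with 5 of 6 pairs lower. The median of the list was -0.26, against -0.13 over all tested miRNAs.

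Among the remaining lists, all 5 measured members of the miR-23/24/27 clusters had mean changes below 0 (median -0.42), 7 of 9 members of miR-26, miR-29 and miR-148 (median -0.11) and 6 of 8 of the miR-15, miR-16 and miR-103 families (median -0.13). Of these members, only miR-103 reached an unadjusted P ≤ 0.05. Over all tested miRNAs, 62.6% had a mean change below 0 and the median was -0.13. The list medians of -0.11 and -0.13 therefore lay close to that background. miR-24-3p, at 89.4 to 137 normalized reads in the U cycle and 65.1 to 120 in the S cycle, had a change of -0.44 (SE 0.22, adjusted P = 0.554, 5 of 6 pairs lower). Of the 5 members of the miR-99, miR-100 and miR-125 families, 3 had a mean change above 0 and 2 below (median 0.32). Both measured members of the miR-181 family lay above 0 (median 0.15), but with opposite signs in H and L heifers. The mean change of miR-181a was -0.47 in H and 1.02 in L (difference -1.49, interaction, adjusted P = 0.813), and it was among the 9 called for such a difference. For miR-181b, which was not called, the changes were -0.93 and 0.97 (interaction, adjusted P = 0.813). The epithelial list, with 4 of 10 measured, had 3 mean changes above 0 and 1 below (median 0.15), with miR-205 lower in 5 of 6 pairs (change -0.39, SE 0.36, adjusted P = 0.725). In the striated muscle list, 2 of 4 measured members had a mean change above 0 and 2 below (median -0.10). Its miR-1 ranged from 21.3 to 1148 in the U cycle and from 25.9 to 100 in the S cycle, and a single library, UL1, held its highest value.

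**Figure D4:**
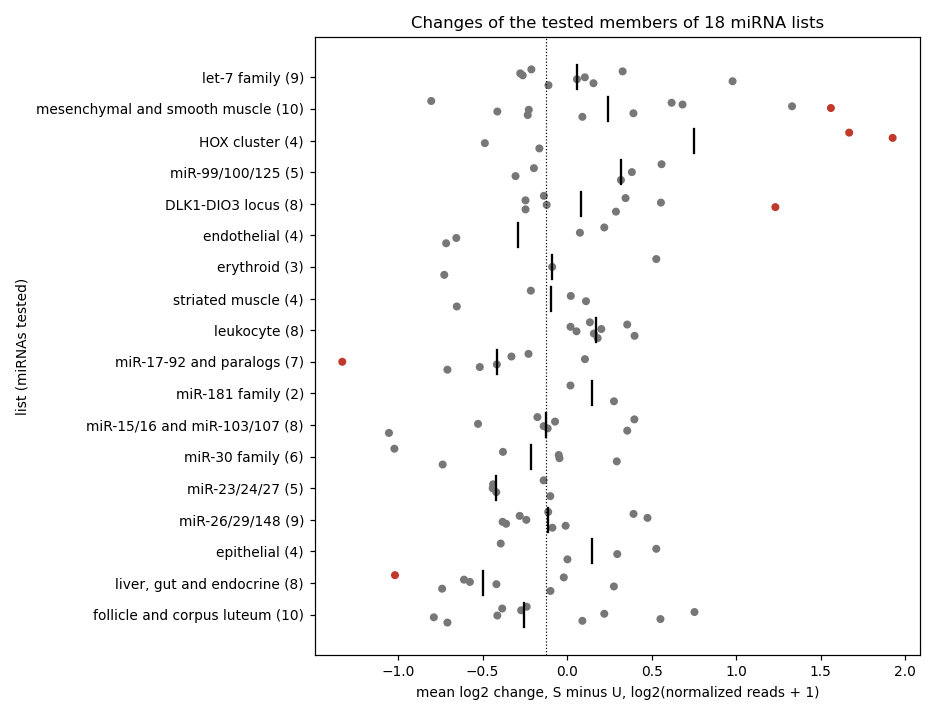
Mean log2 change, S minus U, of the tested members of 18 lists of miRNAs that share a family, a locus or a cell type (grey points, called members in red), with the median of each list (black bar) and of all 190 (dotted line at -0.13). Every leukocyte member lies above 0 and every miR-23/24/27 member below 0, and in no list are more than 2 members called.

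Fewer different miRNAs were detected in the S than in the U cycle. At a common depth of 21466 reads, the size of the smallest library, 181 ± 5.82 miRNAs were expected per U library and 173 ± 6.92 per S library (n = 6). The number was lower in the S cycle in 6 of 6 pairs, by a mean of 8.54 (SD 6.19, exact sign-flip permutation P = 0.03125, the smallest that 6 pairs allow, and 0.125 after adjustment over 4 library measures). For comparison, the libraries held 48584 ± 14979 known miRNA reads in the U and 40439 ± 19640 in the S libraries, with 4 of 6 pairs lower (exact P = 0.531). The share of the 10 most abundant miRNAs was 71.0 ± 3.62% and 72.7 ± 2.1% (exact P = 0.219).

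**Figure D5:**
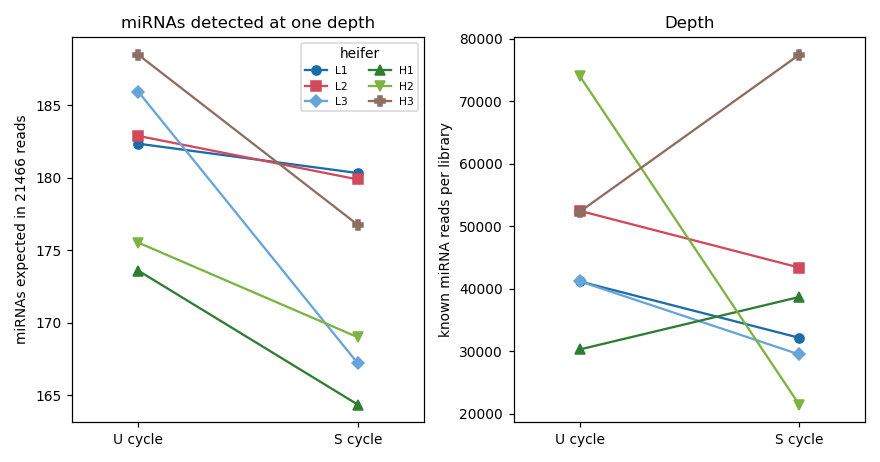
Left, miRNAs expected in 21466 reads of each library, and right, known miRNA reads per library, in the U and the S cycle, 1 line per heifer. All 6 lines fall on the left, and on the right 4 fall and 2 rise.

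Among the 146 miRNAs outside the test, 56 had reads in U libraries only, 32 in S libraries only and 58 in both. These counts were taken at full depth, with a mean of 48584 known miRNA reads in the U and 40439 in the S libraries. A part of depth in them was not tested. None had more than 11 reads in a library. At least 4 U libraries and 0 S libraries held reads of miR-20b, miR-182, miR-2284k and miR-6527, which were picked out after their values were seen, with 9, 11, 4 and 4 reads in all. No miRNA (0) showed the opposite pattern.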

How the data were processed

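Total EV RNA was made into small RNA libraries with a kit that carries molecular identifiers. Per the submitters' processing notes and the study's methods, the authors used Cutadapt for trimming and Bowtie2 2.2.2 for mapping against UMD3.1, and annotated reads without mismatch against miRBase release 21. The deposited value is a score, tags per 1000000 mapped reads that the authors cut to whole numbers. The reads behind it were calculated back from the step of each library (4.48 to 7.93 tags per read), and 100.0% of the values above 0 matched a whole read. All sample columns were used.

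Reads were scaled by TMM factors (trimming 30% of ratios and 5% of levels). The log2(normalized reads + 1) values were fitted in limma 3.58.1 under R 4.3.3, with the heifer as a block, a mean-variance trend and two-sided tests, and calls used the thresholds of the study. The deposited unit is not a count, so the count model edgeR, planned only for deposited counts, was not run. A voom fit of the reads calculated back was run as an alternative. Code was tested on simulated data. Python 3.11.15, numpy 2.4.6, pandas 2.3.3 and scipy 1.17.1 served for tables.

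The labels tie U to S libraries only by letter and number, and the study sampled each heifer in both cycles. Same-heifer deviations from the group means correlated by 0.07, 0.06 and -0.05 in L1 to L3 and by 0.12, 0.22 and 0.19 in H1 to H3. Among S libraries of the same response, the highest correlation was with the own library in L2, H1, H2 and H3. In L1 and L3 it was with that of another heifer, so these values do not settle the pairing by number. The miRNAs named were every called miRNA, the 10 with the smallest P in each direction, the 10 most abundant, those with a mean of at least 10 reads and the same sign in 6 of 6 pairs, the 2 most abundant of each list and any with an adjusted P under 0.05. The comparison and the lists were chosen with earlier results of these data known. RefSeq (ARS-UCD2.0) was used for neighbouring genes only, and 189 of 190 names matched.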

Additional observations from a re-analysis of the deposited data

Results flagged for a closer look

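With 6 libraries in a cycle, the highest or lowest value of a group or of the 6 changes was compared with the gap to its neighbour (Dixon's test at 95%) in 52 groups, covering the called miRNAs, those lower in 6 of 6 pairs and the library measures. Of these, 3 stood apart, and chance gives about 1 in 20. SH3 held 17.8% of its reads in miR-486, against 5.20% or less in the other S libraries. The change of miR-1468 was -1.80 in heifer H1, farther from 0 than in any other heifer. miR-301a was at 1.81 normalized reads (3 reads) in SH3 and at 0 in the other S libraries. With the others tied at 0, any value above 0 would stand apart. This flag is therefore no test, and the rate of 1 in 20 does not apply to it. The change of miR-126-3p differed between H and L heifers by -1.02 before correction (interaction, adjusted P = 0.813), as 1 of 9 (4.74%) of the 190 miRNAs called for such a difference. The cause was not tested for any of them.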

How the results depend on the processing

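miR-196a and miR-199a-3p were called in all 17 alternatives, miR-196b in 13, miR-375 and miR-379 in 12, miR-744 in 11, miR-652 in 10, miR-20a in 9, miR-99a-3p in 7 and miR-301a in 6, with the sign of the change kept wherever they were tested. Without the replicate block, that is without pairing by heifer, 9 miRNAs were called and miR-301a was lost. The block changed no other call. Fewer were called on the deposited values (6, of which 2 lower), with a mean of at least 10 reads (5, 1 lower), with reads in all 12 libraries (5, 1 lower) and with a pseudocount of 2 (5, 0 lower). With voom 0 were called lower. Leaving out a heifer gave 5 (without L3) to 12 called, 1 to 6 of them lower, and 0 to 4 with an adjusted P under 0.05. The difference between H and L heifers was called for 7 to 14 miRNAs, the highest without H2, against 9.

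The difference in the number of miRNAs at a common depth was -6.51 to -9.85, S minus U, with a heifer left out, and 5 pairs cannot go below an exact permutation P of 0.0625. At full depth it was -22.5. The difference in reads ran from -14800 to 744 (without H2) and that of the miR-451 to miR-23a ratio from -0.30 to 0.42.

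The sign turned for 10 named miRNAs, none of them called. With a heifer left out, changes ran from -1.22 to 0.14 for miR-1, -0.082 to 0.31 for miR-21-5p, -0.11 to 0.18 for miR-25, -0.16 to 0.032 for miR-26a, -0.14 to 0.14 for miR-26b, -0.19 to 0.17 for miR-30d, -0.22 to 0.66 for miR-133a, -0.12 to 0.45 for miR-181a, -0.28 to 0.22 for miR-181b and -0.34 to 0.39 for miR-451. With median-of-ratios factors miR-26b was at 0.036, with voom miR-133a at -0.34, and miR-181b at -0.020 by library size and -0.052 on the deposited values. The causes were not tested. Depth limits 83 of the 190 miRNAs, which have a mean under 10 reads and a median SE of 0.52, against 0.22 at 100 reads and over.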

Other observations

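Some miRNAs from the same precursor or the same cluster had unlike mean changes. The gene of miR-214 neighbours that of miR-199a in RefSeq, and miR-214, at 3.06 ± 0.91 normalized reads in the U and 2.17 ± 2.62 in the S cycle, had a change of -0.80 (SE 0.56, adjusted P = 0.695) beside 1.56 for miR-199a-3p. miR-143 and miR-145, smooth muscle miRNAs of the same cluster, had mean changes of 0.39 (SE 0.64, adjusted P = 0.851) and -0.41 (SE 0.56, adjusted P = 0.851). Their changes had the same sign in heifers L1, L2, H2 (-3.33 and -2.81) and H3 (3.28 and 2.23). The signs were opposite in L3 (0.62 and -0.90) and H1 (1.86 and -1.30). Differences between such neighbours were not tested. The miRNAs of this paragraph were picked out after their values were seen.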
